A study of Homo sapiens with 6 samples.

Results

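The genes described here are 10 noncollagen proteins of the extracellular matrix, FN1, FBN1, EFEMP1, LOX, LOXL2, SPARC, TNC, THBS1, POSTN and VCAN, chosen by gene symbol. The choice was made with earlier results of these data known. All 10 matched 1 gene id each among 60483 gene ids, and all 10 passed the filter on low counts that left 14732 genes for testing. Their transcripts were counted by poly(A) RNA-seq in T98G, a long-established line of human glioblastoma cells. The 6 libraries form 3 groups of 2, namely cells left untreated (NT), cells carrying a short hairpin against SRPK1 in pLKO.1 after transient lipid transfection (shSRPK1), and cells carrying full-length SRPK1 in pcDNA3.1 after the same procedure (oeSRPK1). SRPK1 is a kinase of serine/arginine-rich splicing factors. No transfected control was used here, so in both comparisons with NT the transfection and the construct changed together. The 2 libraries of a group are described as biological replicates, but whether they were grown as separate cultures is not given, and every p-value therefore reflects only how these libraries scatter, which may be technical.

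The interstitial matrix is a mesh of secreted proteins between cells. Fibronectin and the fibrillins form its fibres, lysyl oxidases cross-link collagen and elastin within it, and versican, a chondroitin sulphate proteoglycan, binds hyaluronan and holds water. Matricellular proteins such as SPARC, the tenascins, the thrombospondins and periostin add little strength and instead alter how cells attach, migrate and receive growth factors. In glioblastoma, fibronectin and tenascin-C are known as matrix proteins around tumour vessels and along invasive cells.

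Reads counted in genes ranged from 3891549 in oeSRPK1 2 to 22691215 in oeSRPK1 1. SRPK1 itself did not pass the test in either comparison with NT, with normalised CPM (read counts scaled to the normalised library size) of 153 and 140 for NT, of 113 and 140 for shSRPK1, and of 190 and 168 for oeSRPK1. Its log2 fold change was -0.21 ± 0.14 in shSRPK1 (edgeR adjusted p = 0.360) and 0.29 ± 0.14 in oeSRPK1 (edgeR adjusted p = 0.175). The lower NT library and the higher shSRPK1 library had nearly the same level. With only the libraries of oeSRPK1 and NT fitted, SRPK1 was called higher in oeSRPK1 (0.27, edgeR adjusted p = 0.0232). That fit called 44.2% of all genes, against 20.6% in the fit of all 6 libraries. The same call for SRPK1 came from limma-voom when each group had its own spread (0.29, adjusted p = 0.0345), with 42.3% of all genes called. It was called lower in shSRPK1 without shSRPK1 2 (-0.37, edgeR adjusted p = 0.0208), and higher in oeSRPK1 than in NT without shSRPK1 1 or shSRPK1 2 (0.27 and 0.26, edgeR adjusted p = 0.0267 and 0.0319). Between the transfected groups it differed by 0.50 ± 0.14 (edgeR adjusted p = 0.0377), a call that was lost when only their 4 libraries were fitted (0.0920), when counts were thinned (0.0629) and without NT 1, NT 2, oeSRPK1 1 or oeSRPK1 2 (0.0945, 0.0939, 0.308 and 0.0997). The libraries of shSRPK1 differed from each other more than those of the other groups, with a median absolute log2 difference of 0.27 between them, against 0.13 in NT and 0.16 in oeSRPK1. Of 10 glial and glioblastoma markers, VIM, CD44, EGFR and SOX9 were high, while SOX2, S100B and FABP7 had 0 reads in every library and GFAP had at most 1. NES and OLIG2 were low, at 0.765 to 1.89 and 0.777 to 3.28 CPM. Of 8 fibroblast and pericyte markers, PDGFRB and THY1 held most reads, and the summed CPM were 410 and 409 for NT, against 652 and 422 for shSRPK1 and 302 and 333 for oeSRPK1. The 6 endothelial markers summed to at most 1.05 CPM and the 7 immune markers to at most 8.53 CPM in any library, with CD3E and PTPRC at 0 throughout. Skeletal muscle markers, of which 13 of 14 were found, summed to 68.4 and 70.5 CPM in NT, mostly TNNT1, while the sums were 75.4 and 79.5 for shSRPK1 and reached 351 in oeSRPK1 1 and 3027 in oeSRPK1 2. Low counts of other muscle markers were also present in shSRPK1 2, where MYH7 had 61 reads and ACTA1 37, against 0 and 1 in shSRPK1 1 and at most 0 and 2 in NT. Their part in the results for either transfected group was not tested.

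The promoters of FN1, LOX, TNC and POSTN are shown because the first 3 genes were higher in both transfected groups and the fourth had the largest fall. RefSeq (GRCh38.p14) held a promoter for 8 of the 10 genes, all but EFEMP1 and LOXL2. Each run is the minus strand, 5′ to 3′, and stops at the outermost transcript start of GENCODE 29, so that no transcribed base is shown. Capitals mark matches to any of 7 short motifs searched on both strands in the 250 bases before the RefSeq start. The coordinates are chr2:215436173-215436318 for FN1, chr5:122078361-122078509 for LOX, chr9:115118258-115118407 for TNC and chr13:37598845-37599018 for POSTN.
FN1: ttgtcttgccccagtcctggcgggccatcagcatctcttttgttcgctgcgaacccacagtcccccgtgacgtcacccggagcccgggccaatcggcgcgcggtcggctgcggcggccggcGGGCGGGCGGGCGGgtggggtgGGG
LOX: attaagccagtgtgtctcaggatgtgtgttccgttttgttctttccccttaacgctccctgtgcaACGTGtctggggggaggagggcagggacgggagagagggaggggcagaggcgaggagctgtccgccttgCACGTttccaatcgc
TNC: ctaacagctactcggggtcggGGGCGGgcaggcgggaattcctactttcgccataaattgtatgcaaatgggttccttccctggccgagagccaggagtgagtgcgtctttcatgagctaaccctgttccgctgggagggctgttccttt
POSTN: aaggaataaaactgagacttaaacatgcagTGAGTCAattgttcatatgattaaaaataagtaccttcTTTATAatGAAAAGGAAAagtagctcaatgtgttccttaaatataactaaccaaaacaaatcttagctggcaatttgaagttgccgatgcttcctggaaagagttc
The FN1 run had a GC content of 74.0%, LOX 59.1%, TNC 56.7% and POSTN 32.2%. GGGCGG, the GC box, which 42.6% of 35116 promoters held, was found 6 times before FN1, with overlapping matches in the printed run, and the last printed letters begin another. It was found once each before TNC, VCAN and the first of 3 LOX starts, 4 times before THBS1, and not before POSTN. ACGTG, the core of the hypoxia response element, was held by 18.5% of promoters and was found 4 times before that LOX start, of which the matches 185 and 116 bases before the start are in the printed run. POSTN alone of the 8 held TGANTCA, the AP-1 motif (6.57% of promoters), an interferon response motif of GAAA repeated after 2 free bases (3.02%), and TATAAA, the TATA box (10.7%), once on the reverse strand in the printed run and once 29 bases before the start. GGAATG, the TEAD motif (11.9% of promoters), was found before SPARC, FBN1 and THBS1, and an NF-kB motif (5.07%; GGG, 2 free bases, TT, 1 free base, CC) before none of the 8. None of the capitals in the POSTN run belong to overlapping motifs. A match is a description of the letters and no evidence of binding.

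In untreated cells the 10 genes fell into a high and a low set. CPM per kb of the longest annotated transcript was used to compare genes. SPARC stood highest in NT at 403 ± 40.0 CPM per kb (SD, n = 2), followed by LOXL2 at 323 ± 4.01 and FN1 at 128 ± 1.99. LOX at 102 ± 17.4 and THBS1 at 101 ± 0.529 CPM per kb did not differ beyond their spread. SPARC had rank 117 and THBS1 rank 479 among 14650 tested genes with a known length. FBN1 lay between the sets at 17.1 ± 0.889 CPM per kb. POSTN had 3.60 ± 0.769, TNC 2.53 ± 0.350, EFEMP1 2.12 ± 0.264 and VCAN 1.30 ± 0.0695 CPM per kb, and of these neighbours POSTN and TNC, and TNC and EFEMP1, differed by less than the sum of their SDs. With the length of all annotated exons of a gene in place of the longest transcript, FN1 moved from the third to the fifth place at 65.7 CPM per kb and the order of the other genes was the same.

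**Figure D1:**
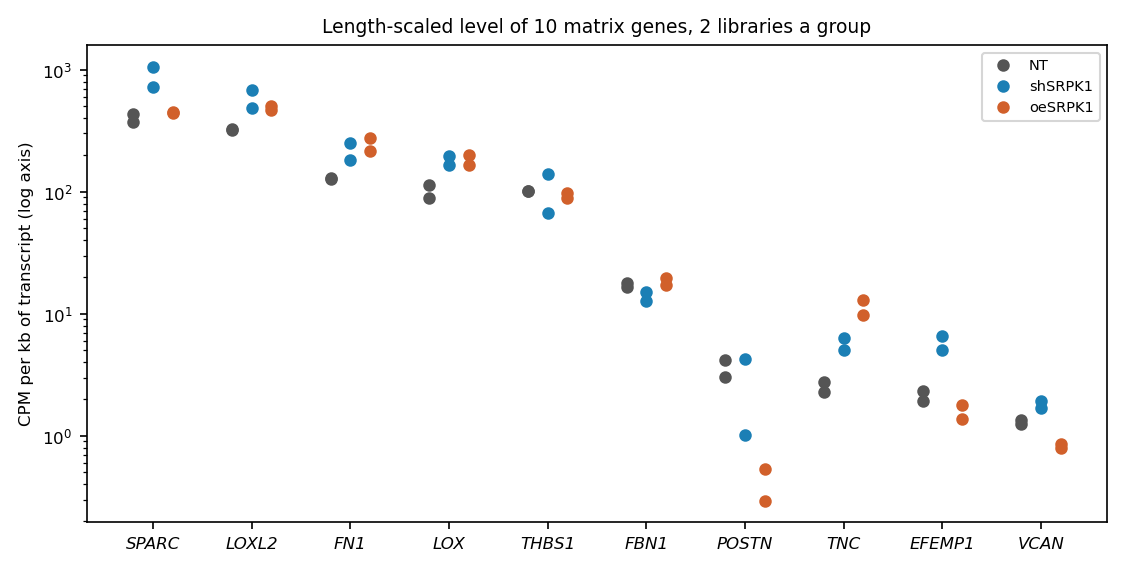
Level of each gene in CPM per kb of its longest transcript (log axis), ordered by the NT mean, with 1 point per library and 2 libraries per group. SPARC, LOXL2, FN1, LOX and THBS1 sit near or above 100 in NT, and POSTN, TNC, EFEMP1 and VCAN below 5.

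The hairpin group had more of most of these transcripts than untreated cells. In shSRPK1 against NT 6 of the 10 genes rose, FN1, EFEMP1, LOX, LOXL2, SPARC and TNC, by 1.69 to 2.75 times, and 0 fell, while FBN1, THBS1, POSTN and VCAN did not pass. Over all 14732 genes 9.18% were called, 5.43% higher and 3.75% lower. The members had a median log2 fold change of 0.79, against 0.01 for all genes. In oeSRPK1 against NT 3 rose, FN1, LOX and TNC, and 2 fell, POSTN and VCAN, while 20.6% of all genes were called, 11.2% higher and 9.45% lower. The skeletal muscle markers were also high in this group, at 351 and 3027 CPM. The median of the 10 was 0.13, against -0.00070 for all genes. Their 10 transcripts together took 0.537% and 0.573% of gene reads for NT, against 1.04% and 0.754% for shSRPK1 and 0.788% and 0.703% for oeSRPK1. In bulk RNA, a change in the share of cells that make a transcript and a change in its amount per cell cannot be told apart. Fold changes are log2 values ± standard error, fitted by the quasi-likelihood method of edgeR to the 6 libraries together (n = 2 per group), and a call is a Benjamini-Hochberg adjusted p under 0.05.

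**Figure D2:**
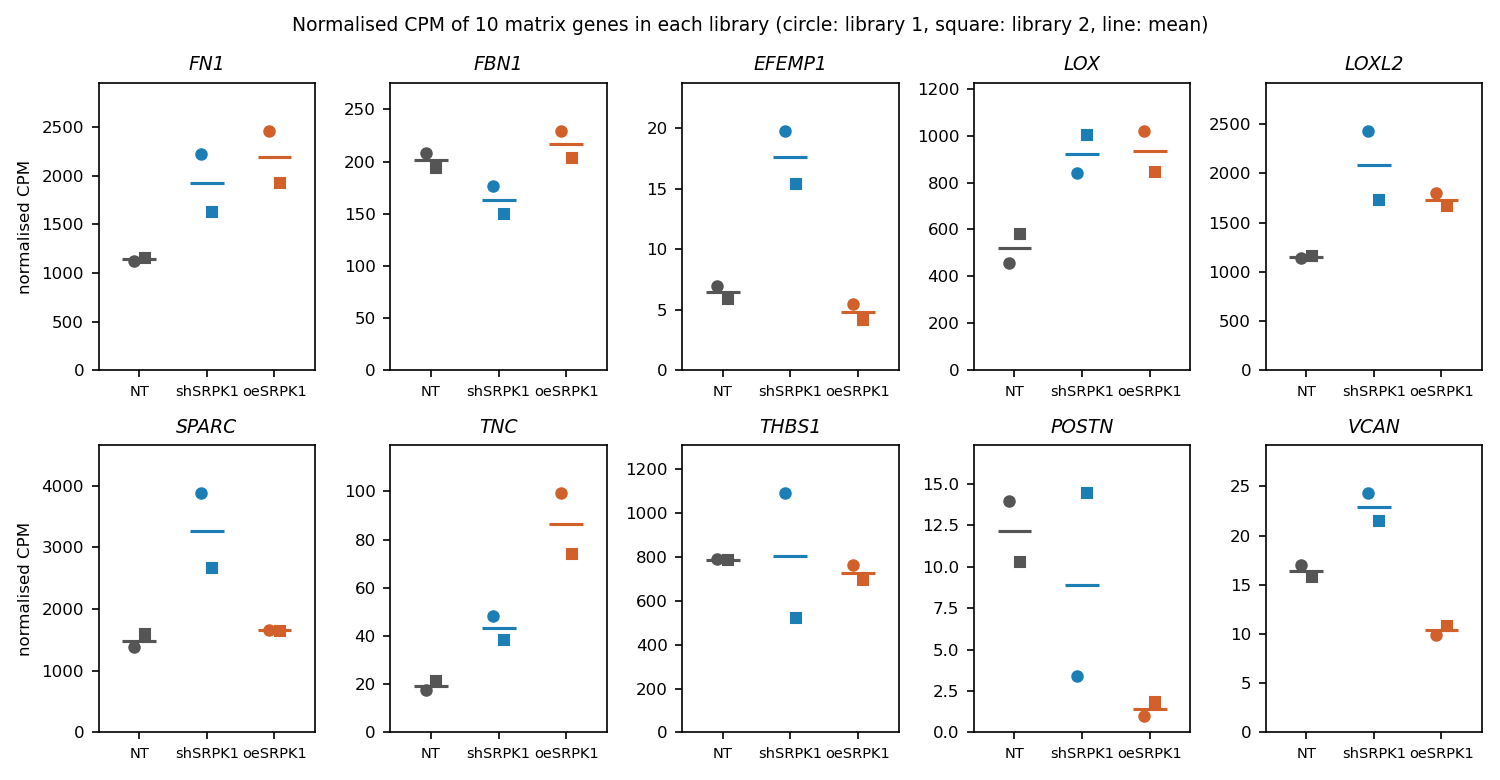
Normalised CPM of each gene by library (circles library 1, squares library 2, lines the group mean of 2 libraries, each axis from 0). FN1, LOX, LOXL2, TNC and, by a small margin in oeSRPK1, SPARC are higher in all 4 transfected libraries than in both NT libraries. EFEMP1 and SPARC are highest in shSRPK1, and POSTN and VCAN are lowest in oeSRPK1.

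FN1 encodes fibronectin, the glycoprotein that cells assemble into fibrils through integrin alpha5 beta1 (ENSG00000115414.17, GRCh38 chromosome 2, 215360440 to 215436172, minus strand). Its normalised CPM were 1125.5 and 1151 for NT, against 2222 and 1628 for shSRPK1 and 2461 and 1925 for oeSRPK1. All 4 transfected libraries were above both NT libraries, and the 2 transfected groups overlapped. FN1 rose by 0.76 ± 0.19 in shSRPK1, or 1.69 times (95% interval 1.24 to 2.31), just under the threshold (edgeR adjusted p = 0.0496). It rose by 0.95 ± 0.19 in oeSRPK1, 1.93 times (1.41 to 2.63, edgeR adjusted p = 0.0144). The ratio of oeSRPK1 to the hairpin group was 1.14 (0.837 to 1.55, edgeR adjusted p = 0.508). Counts per gene pool all splice forms, so the forms of fibronectin with and without its alternative domains were not analysed here.

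FBN1 encodes fibrillin-1, the main protein of microfibrils (ENSG00000166147.12, chromosome 15, 48408306 to 48645849, minus strand). Its levels were 209 and 194 CPM for NT, 176 and 150 for shSRPK1, then 229 and 203 for oeSRPK1. The shSRPK1 libraries lay below the other 4, and NT and oeSRPK1 overlapped. FBN1 passed in no comparison, with -0.30 ± 0.13 in shSRPK1 against NT (95% interval of the ratio 0.656 to 1.001, edgeR adjusted p = 0.176), 0.11 ± 0.13 in oeSRPK1 against NT (0.872 to 1.33, edgeR adjusted p = 0.602) and 0.41 ± 0.13 in oeSRPK1 against shSRPK1 (1.08 to 1.64, edgeR adjusted p = 0.0585). Its values differed least between libraries of the 10 genes. EFEMP1 encodes fibulin-3, a secreted glycoprotein of elastic tissue that glioma cells are known to make (ENSG00000115380.17, chromosome 2, 55865967 to 55924139, minus strand). It had 6.99 and 5.86 CPM for NT, 19.8 and 15.4 for shSRPK1, then 5.44 and 4.14 for oeSRPK1. Those levels rest on 72, 83, 262, 161, 121 and 16 reads. Both shSRPK1 libraries were above the other 4, and both oeSRPK1 libraries were just below NT. EFEMP1 rose by 1.46 ± 0.21 in shSRPK1, 2.75 times (1.95 to 3.88, edgeR adjusted p = 0.0105). In oeSRPK1 it was at -0.34 ± 0.24 of NT on the log2 scale (edgeR adjusted p = 0.335), and the direct comparison of oeSRPK1 with shSRPK1 gave -1.81 ± 0.23, a fall (edgeR adjusted p = 0.00314).

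LOX encodes lysyl oxidase, the copper enzyme that oxidises lysines of collagen and elastin so that they cross-link (ENSG00000113083.11, chromosome 5, 122063195 to 122078360, minus strand). It had 456 and 582 CPM for NT, 842 and 1005 for shSRPK1, then 1020 and 846 for oeSRPK1. Every transfected library was above both NT libraries. LOX rose by 0.83 ± 0.18 in shSRPK1 (1.78 times, 1.34 to 2.36, edgeR adjusted p = 0.0290) and by 0.85 ± 0.18 in oeSRPK1 (1.80 times, 1.35 to 2.39, edgeR adjusted p = 0.0154). The ratio of oeSRPK1 to shSRPK1 was 1.01, with an interval of 0.763 to 1.34 (edgeR adjusted p = 0.960). LOXL2 encodes a related lysyl oxidase that acts on type IV collagen (ENSG00000134013.14, chromosome 8, 23297189 to 23425328, minus strand). It had 1138 and 1158 CPM for NT, 2432 and 1730 for shSRPK1, then 1798 and 1664 for oeSRPK1, again with all 4 transfected libraries above NT. It rose by 0.86 ± 0.18 in shSRPK1 (1.81 times, 1.36 to 2.42, edgeR adjusted p = 0.0284). In oeSRPK1 the value was 0.59 ± 0.18, 1.51 times NT (1.13 to 2.02), which missed the threshold (edgeR adjusted p = 0.0530). It was called there without shSRPK1 1 or shSRPK1 2 (edgeR adjusted p = 5.11e-05 and 5.31e-05), by DESeq2 (adjusted p = 0.0184) and by limma-voom (adjusted p = 0.0450, and 0.00122 when each group had its own spread). In edgeR it was also called with no filter (adjusted p = 0.00366), with only the libraries compared (8.17e-05) and with thinned counts (0.0469). These edgeR fits called 14.3%, 44.2% and 17.8% of all genes, against 20.6% in the fit of all 6 libraries. DESeq2 called 18.2% of all genes, and limma-voom 21.6%, or 42.3% when each group had its own spread. The groups themselves differed by -0.27 ± 0.18 (edgeR adjusted p = 0.315), so a difference between the hairpin and the expression vector was not shown for LOXL2.

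SPARC encodes osteonectin, a calcium and collagen binding matricellular protein that is abundant in gliomas (ENSG00000113140.9, chromosome 5, 151661096 to 151687165, minus strand). Its levels were 1385 and 1594 CPM for NT, 3881 and 2663 for shSRPK1, then 1663 and 1646 for oeSRPK1. Both shSRPK1 libraries were far above the other 4, which lay close together. SPARC rose by 1.14 ± 0.20 in shSRPK1, 2.20 times (1.60 to 3.01, edgeR adjusted p = 0.0185). In oeSRPK1 it was 1.11 times NT (0.812 to 1.52, edgeR adjusted p = 0.621). Set directly against shSRPK1, oeSRPK1 had less SPARC, at -0.98 ± 0.20 (edgeR adjusted p = 0.0132).

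TNC encodes tenascin-C, a large hexameric glycoprotein that is made during development and in wounds and tumours (ENSG00000041982.13, chromosome 9, 115019578 to 115118257, minus strand). It had 17.5 and 21.3 CPM for NT, 48.1 and 38.4 for shSRPK1, then 99.3 and 73.9 for oeSRPK1. Those levels rest on 180, 301, 637, 402, 2207 and 286 reads. The 3 groups did not overlap. TNC rose by 1.16 ± 0.19 in shSRPK1 (2.23 times, 1.64 to 3.03, edgeR adjusted p = 0.0149) and by 2.17 ± 0.19 in oeSRPK1 (4.50 times, 3.30 to 6.13, edgeR adjusted p = 0.000682). It was also higher in oeSRPK1 than in shSRPK1, 2.02 times (1.503 to 2.71, edgeR adjusted p = 0.00930), and its call in oeSRPK1 against NT was kept in all 6 fits that left out 1 library (edgeR adjusted p up to 0.0181). The call in shSRPK1 against NT was lost without NT 1 or NT 2 (edgeR adjusted p = 0.222 and 0.102) and with only the libraries compared (0.0539), and that between the transfected groups without oeSRPK1 1 (0.142).

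THBS1 encodes thrombospondin-1, which binds CD47 and CD36 and can activate latent TGF-beta (ENSG00000137801.10, chromosome 15, 39581079 to 39599466, plus strand). It had 790 and 784 CPM for NT, 1091 and 522 for shSRPK1, then 762 and 695 for oeSRPK1. The 2 shSRPK1 libraries lay on opposite sides of NT, 2.09-fold apart. THBS1 passed in no comparison (0.04 ± 0.31 for shSRPK1 and -0.11 ± 0.31 for oeSRPK1 relative to NT, and -0.15 ± 0.31 between them, edgeR adjusted p = 0.953, 0.828 and 0.762), and the interval of its ratio in shSRPK1 ran from 0.618 to 1.70. Without shSRPK1 1 it was called lower in shSRPK1 (-0.59, edgeR adjusted p = 0.000668) and without shSRPK1 2 higher (0.47, edgeR adjusted p = 0.00243), so the mean of shSRPK1 describes neither library.

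POSTN encodes periostin, a matricellular ligand of alphaV integrins (ENSG00000133110.13, chromosome 13, 37562583 to 37598844, minus strand). It had 14.0 and 10.3 CPM for NT, 3.40 and 14.4 for shSRPK1, then 0.990 and 1.81 for oeSRPK1. Those levels rest on 144, 146, 45, 151, 22 and 7 reads. Both oeSRPK1 libraries were below the other 4, while shSRPK1 1 and shSRPK1 2 differed 4.25-fold. POSTN fell by 3.36 on the log2 scale in oeSRPK1 (SE 0.82), to 0.0971 times the NT level, with a wide interval of 0.0237 to 0.397 (edgeR adjusted p = 0.0393). Against shSRPK1 the value was -2.90 ± 0.84, which missed the threshold (edgeR adjusted p = 0.0569) but was called by DESeq2 (adjusted p = 0.000231). In shSRPK1 against NT it was -0.46 ± 0.62 (edgeR adjusted p = 0.668), with a call lower without shSRPK1 2 (-1.82, edgeR adjusted p = 7.45e-05) and a value of 0.26 without shSRPK1 1 (edgeR adjusted p = 0.429).

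VCAN encodes versican (ENSG00000038427.14, chromosome 5, 83471465 to 83582303, plus strand). Its levels were 17.0 and 15.7 CPM for NT, 24.3 and 21.5 for shSRPK1, then 9.94 and 10.9 for oeSRPK1. Those levels rest on 175, 223, 322, 225, 221 and 42 reads. The 3 groups did not overlap, with shSRPK1 highest and oeSRPK1 lowest. VCAN fell by 0.67 in oeSRPK1 against NT (SE 0.16), to 0.628 times (0.486 to 0.811, edgeR adjusted p = 0.0239). In shSRPK1 it was 1.40 times NT (1.11 to 1.78) without passing (0.49 ± 0.15, edgeR adjusted p = 0.0770). The oeSRPK1 level was below that of shSRPK1, at 0.448 times (0.347 to 0.577, edgeR adjusted p = 0.00373).

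Set against each other, the transfected groups differed in 4 of the 10 genes, against 22.8% of all genes called in this comparison. TNC was higher in oeSRPK1, and SPARC, EFEMP1 and VCAN were lower. Of all genes 11.5% were called higher and 11.3% lower. FN1, LOX and LOXL2 did not pass, with intervals of the ratio of 0.837 to 1.55, 0.763 to 1.34 and 0.623 to 1.11. This comparison is also the test of whether both effects against NT differ, since they share the NT libraries. The libraries of shSRPK1 and NT did not overlap for 8 genes, 7 higher and 1 lower, where 57.5% of all genes did not (28.8% higher, 28.7% lower). Those of oeSRPK1 and NT did not overlap for 9, 5 higher and 4 lower (70.5% of all genes, 35.9% and 34.6%). The transfected groups did not overlap for 6, 2 higher and 4 lower in oeSRPK1 (62.3% of all genes, 31.8% and 30.5%).

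**Figure D3:**
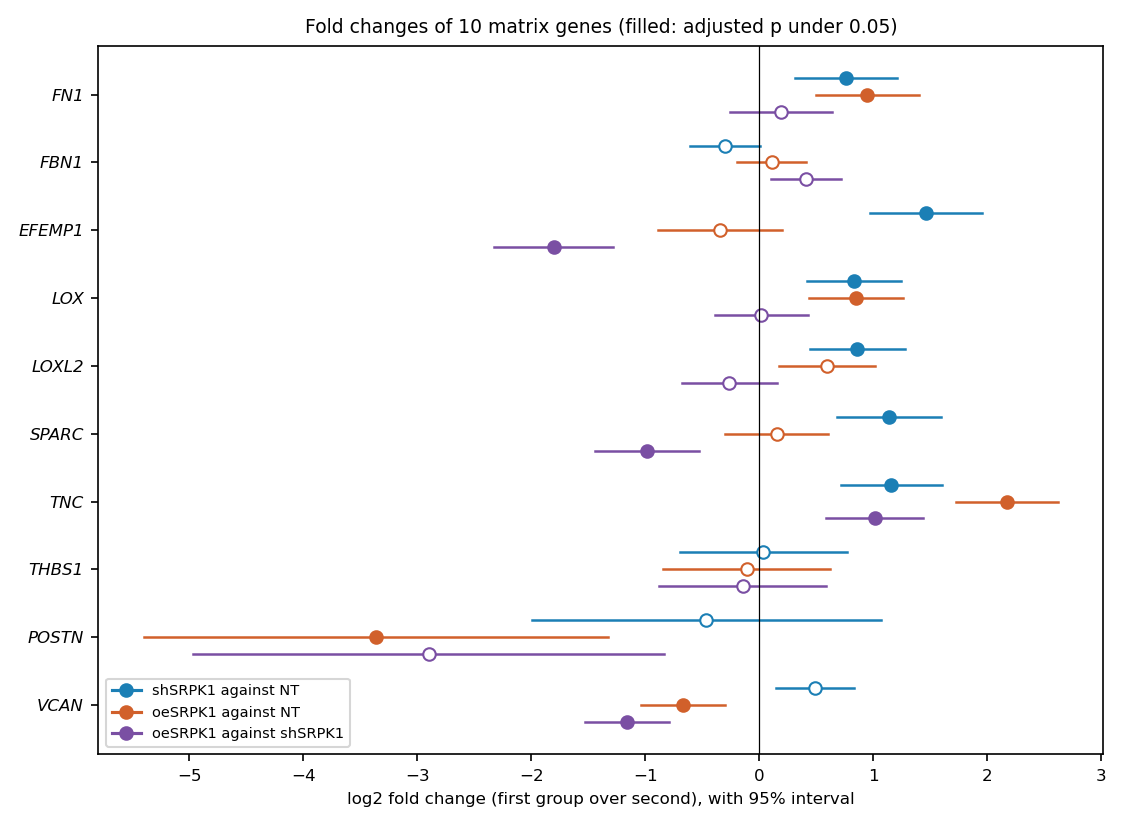
Log2 fold change of each gene in the 3 comparisons (points) with its 95% interval from the edgeR fit (lines), filled where the adjusted p is under 0.05. TNC is to the right of 0 in all 3, EFEMP1 and SPARC are right of 0 in shSRPK1 and left of 0 in oeSRPK1 against shSRPK1, and POSTN has the widest intervals.

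The calls depended on which libraries were fitted, and so did the share of all genes called. Of the 15 calls made in the 3 comparisons, 5 held when NT 1 was dropped and 5 when NT 2 was. All 15 held when either shSRPK1 library was dropped, but only 3 when oeSRPK1 1 was and 6 when oeSRPK1 2 was. The direction turned for 0 of the 15. Leaving out shSRPK1 1 or shSRPK1 2 added 7 calls in each case, while the share of all genes called rose to 25.9% and 29.01% in shSRPK1 against NT, 41.8% and 40.5% in oeSRPK1 against NT, and 36.1% and 38.8% between the transfected groups. Beside those of THBS1, POSTN and LOXL2 given above, FBN1 was then called lower in shSRPK1 than in NT (-0.43, edgeR adjusted p = 0.00988) and higher in oeSRPK1 than in the hairpin group (0.503, edgeR adjusted p = 0.00217), and FN1 likewise (0.40, edgeR adjusted p = 0.0259), all without shSRPK1 1. Without shSRPK1 2, VCAN was called higher in shSRPK1 than in NT (0.58, edgeR adjusted p = 0.00804), and in oeSRPK1 against shSRPK1 LOXL2 was called lower (-0.53, edgeR adjusted p = 0.000607). Between the transfected groups THBS1 was called higher in oeSRPK1 without shSRPK1 1 (0.45, edgeR adjusted p = 0.00416) and lower without shSRPK1 2 (-0.62, edgeR adjusted p = 0.000128), and POSTN lower in both fits (edgeR adjusted p = 1.29e-08 and 0.00170). In shSRPK1 against NT no member was called by edgeR without NT 1 or NT 2 (7 and 6 at an unadjusted p under 0.05), in fits that called 0.182% and 0.362% of all genes. EFEMP1 and TNC alone were called without oeSRPK1 1 (edgeR adjusted p = 0.0466 and 0.0488) or oeSRPK1 2 (0.0455 and 0.0471), with 1.59% and 1.68% of all genes called, where FN1, LOX, LOXL2 and SPARC had edgeR adjusted p from 0.0729 to 0.109. When only the 4 libraries of shSRPK1 and NT were fitted, 0 of the 10 passed in edgeR (adjusted p = 0.0530 for EFEMP1 and 0.0539 for TNC), with 7 at an unadjusted p under 0.05 and 0.903% of all genes called. DESeq2 and limma-voom, fitted to all 6 libraries, each called 6, with 9.73% and 9.28% of all genes called. With a spread of its own for each group, limma-voom called 5, with 6.55% of all genes called. In oeSRPK1 against NT, TNC was the only member called without NT 1, NT 2, oeSRPK1 1 or oeSRPK1 2, in fits that called 2.38%, 3.17%, 1.94% and 6.36% of all genes. FN1 then had edgeR adjusted p = 0.141, 0.122, 0.181 and 0.0511, LOX 0.170, 0.0697, 0.186 and 0.0591, POSTN 0.163, 0.121, 0.263 and 0.0791, and VCAN 0.179, 0.121, 0.217 and 0.0844. In oeSRPK1 against shSRPK1, TNC, SPARC, EFEMP1 and VCAN lost their calls without oeSRPK1 1 (edgeR adjusted p = 0.142, 0.142, 0.0621 and 0.0888), and SPARC without oeSRPK1 2 (0.0967), with 0.952% and 6.12% of all genes called. A fit that leaves out 1 library assumes that the lone library of its group varies like the other groups.

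**Figure D4:**
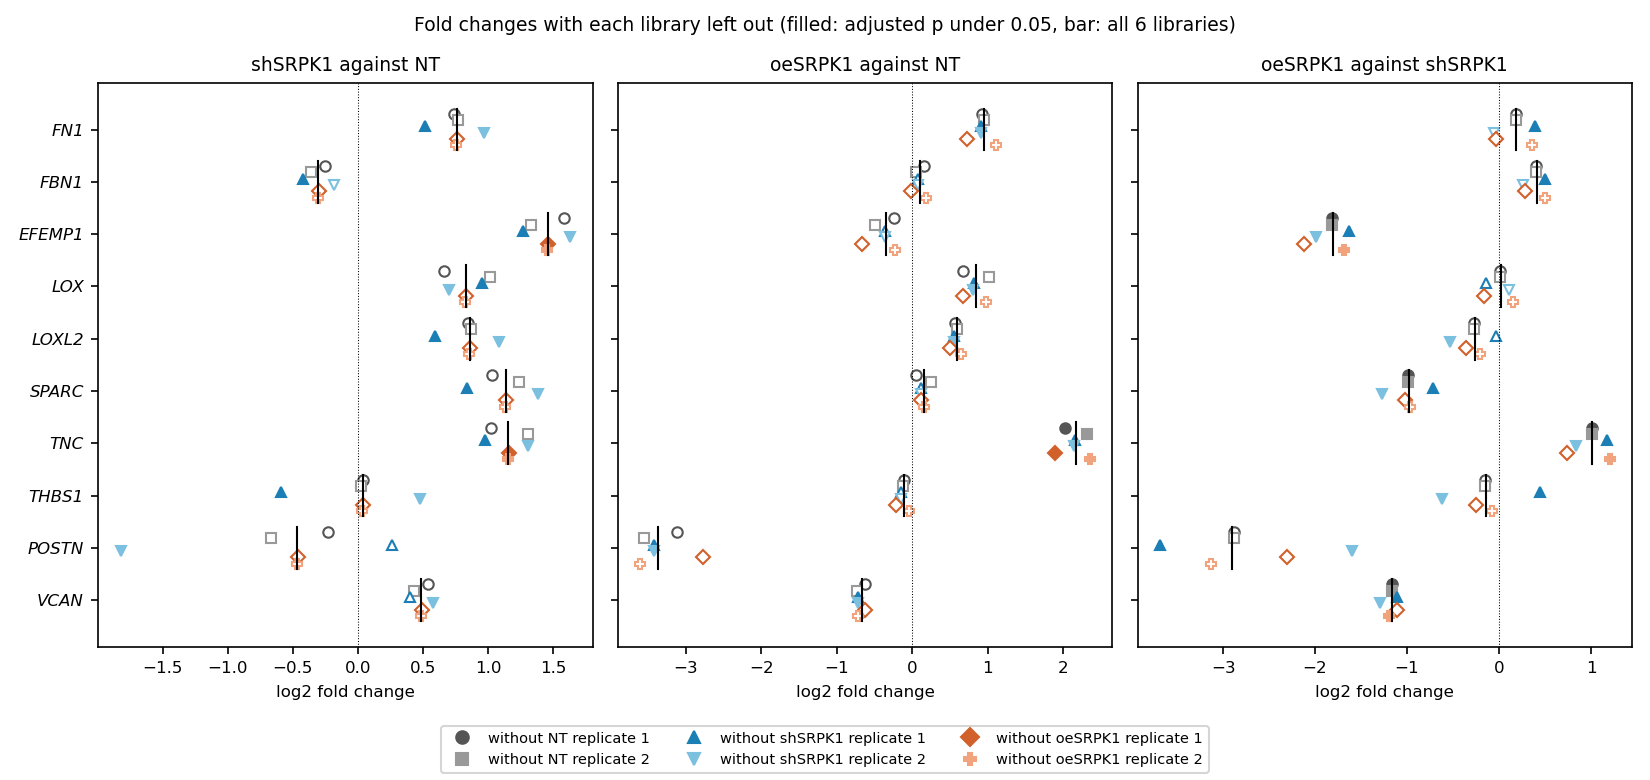
Log2 fold change of each gene when 1 library is left out (6 marker shapes, filled where the adjusted p is under 0.05), with a black bar for all 6 libraries, by comparison. TNC keeps its place right of 0 in every fit, and THBS1 and POSTN in shSRPK1 against NT move across 0 with the shSRPK1 library left out.

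Other genes of the same matrix systems were followed in 7 lists. Over all 14732 genes, 9.18% were called in shSRPK1 against NT, 20.6% in oeSRPK1 against NT and 22.8% between the transfected groups. List genes outside the 10 were tested only in the fit of all 6 libraries. How their calls depend on the libraries or settings was not tested. Enzymes that cross-link the matrix, or prepare collagen for it, were higher in the hairpin group where they passed the test. Of 10 such enzymes tested besides LOX and LOXL2, 4 rose and 0 fell in shSRPK1, with a median of 0.61 and values from 0.28 to 1.43. PCOLCE, which speeds the cleavage of procollagen (1.43 ± 0.14, edgeR adjusted p = 0.00314), PLOD1 and PLOD2, lysyl hydroxylases of collagen (1.31 ± 0.19 and 0.95 ± 0.17, edgeR adjusted p = 0.0102 and 0.0190), and the procollagen protease BMP1 (0.63 ± 0.14, edgeR adjusted p = 0.0322) were those. In oeSRPK1 against NT 2 of the 10 rose, PLOD1 (1.005 ± 0.19) and PLOD3 (0.69 ± 0.15), and 2 fell, LOXL1 (-0.97 ± 0.18) and PCOLCE (-0.64 ± 0.14), with edgeR adjusted p = 0.0106, 0.0169, 0.00965 and 0.0182. Between the transfected groups 5 of the 10 were lower in oeSRPK1 and 0 higher, among them PCOLCE (-2.07 ± 0.14, edgeR adjusted p = 0.000594), LOXL1 (-1.41 ± 0.18, edgeR adjusted p = 0.00315), LOXL3 (-1.02 ± 0.18, edgeR adjusted p = 0.00899) and BMP1 (-0.61 ± 0.14, edgeR adjusted p = 0.0215).

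The cell receptors for fibronectin, tenascin, periostin and thrombospondin moved in both directions. Of 13 tested, 1 rose and 3 fell in shSRPK1, and 4 rose and 5 fell in oeSRPK1 against NT. Of all genes, 5.43% were called higher and 3.75% lower in shSRPK1, and 11.2% and 9.45% in oeSRPK1 against NT. ITGA5, the alpha chain of the main fibronectin receptor, was at 170 CPM in NT (mean of 2), 351 in shSRPK1 and 470 in oeSRPK1, and rose by 1.05 ± 0.25 and 1.47 ± 0.25 (edgeR adjusted p = 0.0423 and 0.00845). ITGA8, the alpha chain of another receptor for fibronectin and tenascin-C, went from 156 CPM in NT to 82.6 in shSRPK1 and 25.3 in oeSRPK1 (-0.91 ± 0.11 and -2.61 ± 0.12, edgeR adjusted p = 0.00631 and 0.000282). Of the syndecans, heparan sulphate co-receptors of fibronectin, SDC4 alone was called higher against NT, and the others fell in oeSRPK1. SDC4 rose in oeSRPK1 (1.63 ± 0.25, edgeR adjusted p = 0.00599), and SDC1 fell in shSRPK1 (-1.16 ± 0.24, edgeR adjusted p = 0.0294) and in oeSRPK1 (-1.50 ± 0.25, edgeR adjusted p = 0.00820), as did SDC3 (-0.48 ± 0.11 and -0.72 ± 0.11, edgeR adjusted p = 0.0371 and 0.00538). Between the transfected groups 2 receptors were higher in oeSRPK1, SDC4 (1.47 ± 0.25) and ITGB3 (0.99 ± 0.17), and 2 lower, ITGA8 (-1.69 ± 0.12) and ITGA4 (-1.15 ± 0.16), with edgeR adjusted p = 0.00828, 0.00835, 0.000610 and 0.00404.

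Of 12 other matricellular proteins tested, 1 rose in shSRPK1, TGFBI, a collagen-binding protein close to periostin (0.86 ± 0.17, from 4728 to 8597 CPM, edgeR adjusted p = 0.0241), and 0 passed in oeSRPK1 against NT in edgeR (2 at an unadjusted p under 0.05). Their medians were -0.35 and -0.27, and 9.18% and 20.6% of all genes were called in these comparisons. Between the transfected groups CCN4 was higher in oeSRPK1 (1.149 ± 0.31, edgeR adjusted p = 0.0428), and FSTL1, THBS3 and SPP1 were lower (-0.55 ± 0.12, -0.55 ± 0.16 and -1.62 ± 0.45, edgeR adjusted p = 0.0177, 0.0385 and 0.0383), SPP1 from levels under 2 CPM. Of 9 other genes of the elastic fibre and fibrillin network, 1 rose in shSRPK1, EFEMP2, the fibulin-4 gene (0.54 ± 0.12, edgeR adjusted p = 0.0299), and in oeSRPK1 against NT EMILIN2 rose (2.00 ± 0.31, edgeR adjusted p = 0.00512) while FBLN7, LTBP4 and FBN2 fell (-1.02 ± 0.15, -0.89 ± 0.15 and -0.71 ± 0.18, edgeR adjusted p = 0.00487, 0.00667 and 0.0280). In oeSRPK1 against shSRPK1 2 of the 9 were higher, EMILIN2 (2.64 ± 0.33, edgeR adjusted p = 0.00312) and LTBP1, a carrier of latent TGF-beta (2.22 ± 0.37, edgeR adjusted p = 0.0119), and 4 were lower, among them FBN2 (-1.16 ± 0.18, edgeR adjusted p = 0.00529) and LTBP4 (-0.84 ± 0.15, edgeR adjusted p = 0.00806).

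Of the 18 genes of hyaluronan and chondroitin sulphate proteoglycans only 5 passed the filter, VCAN included, and the other 4 were called in none of the 3 comparisons by edgeR, with 1 at an unadjusted p under 0.05, between the transfected groups. Of 4 ADAMTS proteases tested that can cleave versican, ADAMTS9 fell in shSRPK1 (-1.08 ± 0.20, edgeR adjusted p = 0.0199) and stood higher in oeSRPK1 than in the hairpin group (0.85 ± 0.20, edgeR adjusted p = 0.0226), and 0 passed in oeSRPK1 against NT (0 also at an unadjusted p under 0.05 in edgeR). TGF-beta is a known inducer of many matrix genes. Of 12 TGF-beta ligands, receptors and SMADs tested, TGFBR2 rose (0.52 ± 0.12, edgeR adjusted p = 0.0382) and TGFBR3 fell (-1.24 ± 0.17, edgeR adjusted p = 0.00940) in shSRPK1, and in oeSRPK1 TGFBR1 and TGFBR2 rose (0.89 ± 0.14 and 0.74 ± 0.12, edgeR adjusted p = 0.00515 and 0.00672) and TGFBR3 fell (-1.15 ± 0.18, edgeR adjusted p = 0.00533). Between the transfected groups TGFBR1 and SMAD2 were higher in oeSRPK1 (1.34 ± 0.14 and 0.58 ± 0.14, edgeR adjusted p = 0.00176 and 0.0257). Over all genes, 9.18%, 20.6% and 22.8% were called in these 3 comparisons.

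**Figure D5:**
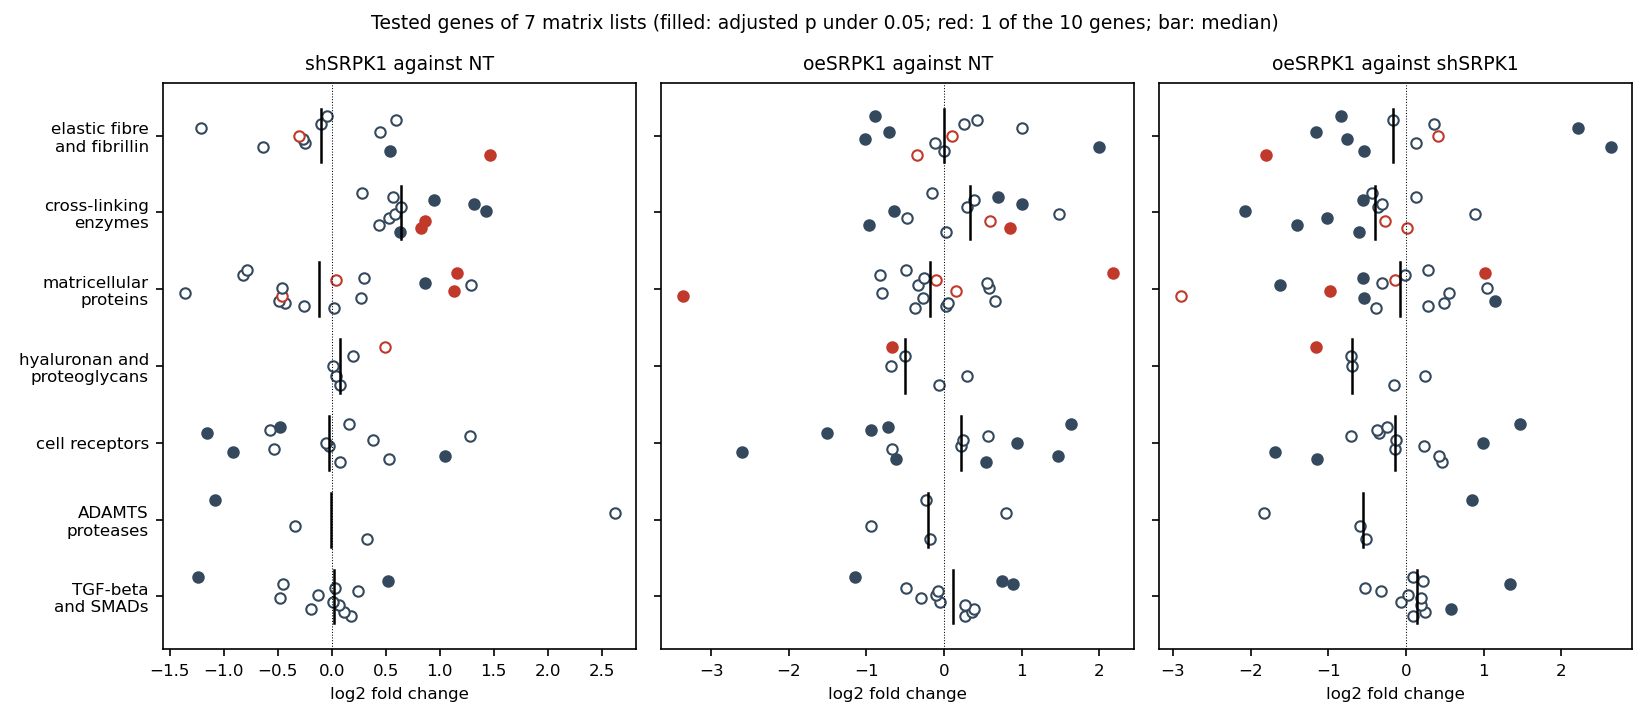
Log2 fold change of every tested gene of 7 matrix lists in the 3 comparisons, filled where the adjusted p is under 0.05, red for the 10 genes described above, with a bar at the list median. The cross-linking enzymes lie right of 0 in shSRPK1 against NT (median 0.64 with LOX and LOXL2), and the receptors spread to both sides.

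Annotated genes on the opposite strand overlap VCAN, TNC, LOX, SPARC, LOXL2 and THBS1, and ENTPD4 overlaps LOXL2 on the same strand. Also on the same strand, AC037198.1 and AC022467.1 lie in introns of THBS1 and FBN1, with 0 shared exon bases. They share at most 7.89% of the exon bases of a member. SRFBP1, which shares 2.49% of the exon bases of LOX, had 79 to 439 reads against 3272 to 22683 for LOX. ENTPD4, which shares 2.10% of those of LOXL2, had 462 to 2671 reads against 6439 to 39959 for LOXL2.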

How the data were processed

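The deposited tables hold raw read counts, whole numbers for every gene of a library and not scaled by the authors. The submitters' processing notes name FastQC, Trimmomatic, STAR 2.5.3 and hg38. What counted the reads, and with which annotation and strand setting, is not given in the sources used here. How reads of overlapping genes were handled is therefore not known in full. Entries that name no gene held 23.5% to 26.7% of each table and were left out. Among them were reads marked ambiguous, at 3.04% to 3.37%. A gene name table gave the symbols, and GENCODE 29 (GRCh38) the positions and lengths. In R 4.3.3, edgeR 4.0.16 (filterByExpr with a minimum count of 10 and total of 15, TMM, robust glmQLFit, glmQLFTest) was fitted to all genes and all 6 libraries, with a biological coefficient of variation of 14.5%. A floor of 3 counts stood for 0.132 to 0.771 CPM. DESeq2 1.42.0 and limma 3.58.1 served as alternatives. The steps were tested on simulated data, where the set fold changes were recovered on average. With a spread of its own for each gene, false calls there were well above the nominal share in both comparisons with oeSRPK1, and close to it where genes of like level shared a spread. The genes, lists and tests were chosen with earlier results of these data known. The text names the 10 genes, SRPK1, markers by level and, from each list and comparison, up to 4 called genes with the smallest adjusted p. A gene named for 1 comparison may also be given with its values in another.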

Additional observations from a re-analysis of the deposited data

How the results depend on the processing

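Under the 11 alternatives other than leaving out 1 library, most counts of members called stayed within 1.5 times. In shSRPK1 against NT 6 were called higher, and 0 at an adjusted p under 0.01 and 0 when only the libraries compared were fitted (1.23% and 0.903% of all genes called). In oeSRPK1 against NT 3 were higher and 2 lower, with 1 and 0 at an adjusted p under 0.01, 1 lower with no filter (POSTN lost) and 1 lower when counts were thinned to the shallowest library (VCAN lost). Of all genes, 6.71%, 14.3% and 17.8% were called under these settings in oeSRPK1 against NT. LOXL2 was gained there as higher in 6 of the 11, and POSTN as lower between the transfected groups in 3 (DESeq2, the filter of 5 CPM, adjusted p = 0.0432 in edgeR, and limma-voom with group-wise spread, 0.0230). FN1 in shSRPK1 against NT also missed the threshold with DESeq2 size factors (edgeR adjusted p = 0.0518), upper-quartile scaling (0.0569), the filter of 5 CPM in 2 libraries (0.0524) and in limma-voom when each group had its own spread (0.0539). With each library left out in turn, shSRPK1 against NT had 0 to 8 members higher and 0 to 2 lower, oeSRPK1 against NT 1 to 4 and 0 to 2, and oeSRPK1 against shSRPK1 0 to 4 and 0 to 6, while the share of all genes called ran from 0.182% to 29.01%, 1.94% to 41.8% and 0.952% to 38.8%. The cause of these losses was not tested. Same-numbered libraries did not deviate together (correlations of 0.01, -0.02 and 0.02 across genes). Adding the replicate number to the fit as a block called 5 members higher in shSRPK1 against NT, where FN1 was lost (edgeR adjusted p = 0.0560). The block called 3 members higher and 2 lower in oeSRPK1 against NT, and 1 higher and 3 lower between the transfected groups. Over all genes it called 624 higher and 382 lower in shSRPK1 against NT, against 800 and 552 without it. In oeSRPK1 against NT it called 17.9% of all genes, and between the transfected groups 19.3%.

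Signs turned only for values that were not called in the fit of all libraries. In shSRPK1 against NT, THBS1 was at -0.069 in limma-voom, -0.066 there when each group had its own spread, -0.036 with the replicate block and from -0.59 to 0.47 when 1 library was left out, and POSTN ran from -1.82 to 0.26. In oeSRPK1 against NT, FBN1 ran from -0.017 to 0.19. In oeSRPK1 against shSRPK1, FN1 ran from -0.060 to 0.40, THBS1 from -0.62 to 0.45 and LOX from -0.16 to 0.15, and LOX was at -0.0047 with upper-quartile scaling, -0.055 with no filter and -0.0020 in limma-voom. EFEMP1, VCAN and POSTN in oeSRPK1 2 rest on 16, 42 and 7 reads, which limits their precision.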
